A study of Mus musculus with 20 samples.

Results

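The comparison described here was ketamine against saline in mice that received no corticosterone, measured by single-cell RNA sequencing of the basolateral amygdala (BLA). Its members were the 5 BLA libraries of the vehicle groups: 3 mice given the vehicle and then ketamine (BCD-Ket, mice 9946, 9949 and 9986) and 2 given the vehicle and then saline (BCD-Sal, mice 9901 and 9947). They held 3460 of the 8305 barcodes kept from the 10 BLA libraries analysed here, in a series whose labels list 20 samples. A barcode, the droplet tag that stands for a cell, was kept when mitochondrial genes gave at most 1 in 8 of its unique molecular identifiers (UMIs, counted molecules), the limit in the study's methods, and when it had at least 200 genes.

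All 5 mice were wild-type C57BL/6 animals, 13 weeks old per the labels and male per the study's methods. BCD is 2-hydroxypropyl cyclodextrin, the carrier that dissolves corticosterone, which the animals drank for 6 weeks without the hormone. Ketamine was injected once into the peritoneum at 10 mg/kg, control mice received saline, and brains were taken 24 h later. The comparison asks what ketamine changed in the absence of corticosterone (CORT), which other groups of the study received. Each library came from 1 mouse, so the mouse is the replicate. The protocol text attached to these samples speaks of prefrontal cortex, whereas the tissue label reads BLA, and the label was followed.

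Ketamine blocks the NMDA receptor, a glutamate-gated channel that admits calcium and drives synaptic plasticity. Its fast antidepressant action has been tied to a burst of glutamate release, AMPA receptor signalling, BDNF release and mTOR-dependent translation. The BLA, a hub for fear and valence, holds mostly glutamatergic projection neurons and fewer GABAergic interneurons, wrapped by astrocytes, oligodendrocytes and a dense capillary bed whose endothelial cells form the blood-brain barrier.

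The libraries were of 2 kinds within each group. Microglia, the resident macrophages, numbered 165 in saline mouse 9901, 126 in ketamine mouse 9949 and 155 in ketamine mouse 9986, but 0 in saline mouse 9947 and 0 in ketamine mouse 9946. The same pair of libraries held 3 and 5 astrocytes. Each group thus held 1 library of this kind. Where both saline mice enter a mean below, it averages a library of 1274 kept barcodes (mouse 9901) with one of 250 (mouse 9947). The median kept barcode held 1109 UMIs in mouse 9901 and 2299 in mouse 9947. Totals ran from 1947860 to 6778708 UMIs a library, the median mitochondrial share of all barcodes from 33.2% to 51.5%, and the median of a kept barcode from 883 to 2845 UMIs. No kept barcode was shared between any of these libraries. Outside the comparison, CORT-Sal mouse 9970 had a median mitochondrial share of 3.22%.

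Cells were assigned by marker gates: at least 2 UMIs of Cldn5 and Flt1 for endothelial cells, of Gja1 and Aqp4 for astrocytes, of Mog and Mag for oligodendrocytes, of Slc17a7 and Slc17a6 for excitatory neurons and of Gad1 and Gad2 for inhibitory neurons, and at least 3 times the UMIs of any other gate. Markers not used for gating bore the names out. Of 12 markers per class, 12 were highest in their own class for endothelial cells, 12 for astrocytes, 12 for oligodendrocytes, 11 for inhibitory and 9 for excitatory neurons.

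Excitatory neurons made up a smaller share of kept barcodes in each ketamine mouse than in each saline mouse. They were 13.3% of barcodes (170 cells) in saline mouse 9901 and 25.6% (64 cells) in saline mouse 9947. They were 8.86% (32 cells), 2.27% (15 cells) and 7.44% (68 cells) in ketamine mice 9946, 9949 and 9986. The groups did not overlap, with means of 19.5% ± 8.67 (SD, n = 2) and 6.19% ± 3.47 (SD, n = 3). The exact two-sided permutation test gave p = 0.1, the smallest that 2 against 3 mice allow, and 0.5 after adjustment over the 5 classes. Inhibitory neurons were 26.8% of barcodes in saline mouse 9947 and at most 6.09% in the other libraries, with an exact permutation p of 0.2. Endothelial cells (10.5% and 17.2% against 36.6%, 20.7% and 15.2%), astrocytes and oligodendrocytes overlapped between groups, with exact permutation p of 0.4, 0.5 and 0.6. A share depends on how many cells of the other classes survived dissociation and on the depth of a barcode, and neither part was tested.

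**Figure D1:**
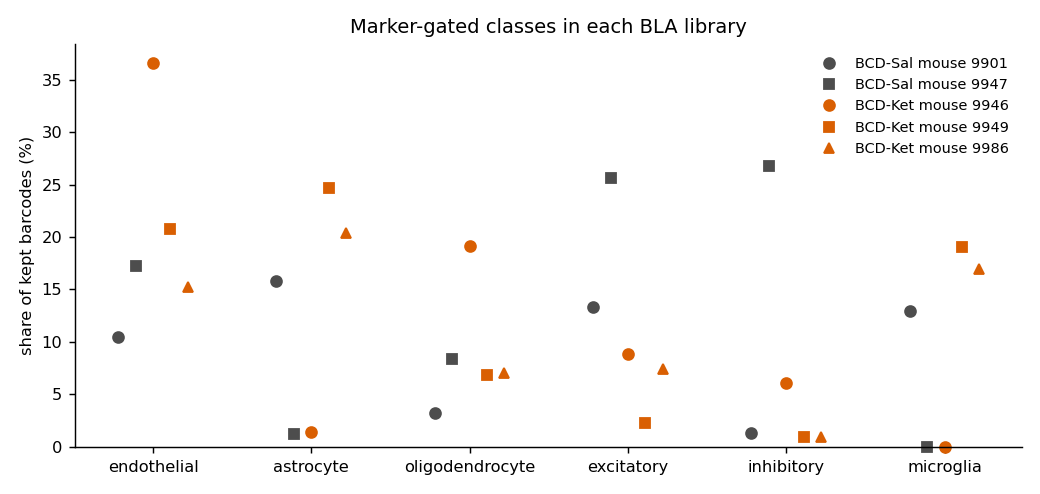
Share of kept barcodes (y axis, percent) in each gated class and in microglia (x axis), 1 symbol per mouse, with BCD-Sal in grey and BCD-Ket in orange. The excitatory symbols of the ketamine mice, 2.27% to 8.86%, all sit below the saline symbols at 13.3% and 25.6%; saline mouse 9947 and ketamine mouse 9946 are at 0 for microglia.

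Excitatory neurons carry the NMDA receptors that ketamine blocks, and none of the genes around this target passed the test. edgeR's quasi-likelihood test on the counts summed per mouse called 0 of 7054 genes at an adjusted p of 0.05. DESeq2 also called 0, and 92 genes had an unadjusted p under 0.05. Values are given as CPM, the UMIs of a gene per 1000000 UMIs of the class in that mouse, in the order saline 9901 and 9947, then ketamine 9946, 9949 and 9986. Grin1, the obligatory NMDA receptor subunit, stood at 540.1 and 468 CPM against 379, 409.5 and 542 CPM. Grin2a, a regulatory subunit, stood at 739 and 372 CPM against 844, 554 and 1087 CPM. Grin2b, the subunit of juvenile and extrasynaptic receptors, spanned a wider range within each group, 1821 and 571 CPM against 1704, 542 and 1778 CPM. The 4 NMDA receptor genes tested had a median log2 fold change of -0.05, beside -0.0039 over all genes tested.

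The AMPA receptor set, which carries the fast response to glutamate, gave no call either. Its 8 tested genes had a median log2 fold change of 0.09, and Gria2, the subunit that blocks calcium entry, was at 3984 and 1931 CPM against 3339.9, 1939 and 4502 CPM. Cnih2, an auxiliary subunit that slows AMPA receptor closing, was the only one of the 8 whose groups did not overlap, at 73.6 and 49.6 CPM against 121, 96.4 and 157 CPM. Over all genes in this class 6.48% were higher in every ketamine mouse and 5.10% lower in every ketamine mouse. The 11 tested GABA-A receptor subunits had a median of 0.11 and the 11 tested other channels (HCN, sodium, potassium and calcium) one of 0.10.

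Gabra5, the GABA-A subunit of extrasynaptic receptors that carry tonic inhibition, was higher in each ketamine mouse. It measured 79.4 and 21.3 CPM against 121, 145 and 215 CPM, a log2 fold change of 1.58 ± 0.52 (SE) with an unadjusted edgeR p of 0.0057 and an adjusted p of 0.999. Vegfa, a vascular growth factor that neurons also make, showed the same order. It measured 21.3 and 24.8 CPM against 60.3, 193 and 62.0 CPM, a log2 fold change of 2.00 ± 0.66 with an edgeR adjusted p of 0.999. In the sums these are 41, 6, 14, 12 and 52 UMIs of Gabra5 and 11, 7, 7, 16 and 15 UMIs of Vegfa.

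Of the BDNF and mTOR list, 15 genes were tested, 0 passed and the median was 0.10. Bdnf itself, the neurotrophin, ranged from 20.7 to 193 CPM among the ketamine mice, around the saline values of 63.9 and 149 CPM. Its receptor Ntrk2 was at 546 and 447 CPM against 619.8, 687 and 570.5 CPM, a gap within the error of the fit (edgeR adjusted p = 0.999). Mtor, the translation kinase, overlapped at 36.8 and 49.6 CPM against 68.9, 24.1 and 45.5 CPM. Eef2k, the kinase that slows translation elongation, overlapped as well.

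Immediate early genes, which neuronal activity switches on within minutes, gave no call in these neurons at 24 h. The 17 tested immediate early genes had a median log2 fold change of -0.06, with 8 higher and 9 lower, where 49.7% of all genes in the class were higher. Fos, the classical activity marker, gave 9 and 22 UMIs in the saline mice and 0, 4 and 0 in the ketamine mice, or 17.4 and 78.0 CPM against 0, 48.2 and 0 CPM. Arc, which trims AMPA receptors from synapses, stayed under 160 CPM in every mouse, with 157 CPM in ketamine mouse 9949. Egr1 was highest in saline mouse 9947, at 634 CPM, and lowest in ketamine mouse 9986, at 49.6 CPM. Nuclear genes of oxidative phosphorylation split evenly, 31 higher and 37 lower of 68, and the 13 tested clock genes had a median of 0.05.

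The planar cell polarity genes, which the study followed because they organise glutamatergic synapses, were likewise within error. Of 18 listed genes 10 were tested, 0 passed, and their median was 0.11. Celsr2, an adhesion receptor of this system, was at 275 and 237 CPM against 370.1, 241 and 302 CPM. Celsr3, its paralog, was at 128 and 39.0 CPM against 77.5, 84.3 and 103 CPM. In both genes the ketamine values lay within or beside the saline range.

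The smallest p in excitatory neurons belonged to Ndnf, Cartpt, Rgs4, Gabra5 and Sema6a. Ndnf, a secreted factor of some cortical neuron types, was at 1.94 and 7.09 CPM in the saline mice and at 0, 313 and 62.0 CPM in the ketamine mice. The sums behind it were 1, 2, 0, 26 and 15 UMIs, and the log2 fold change was 4.64 ± 1.24 with an edgeR adjusted p of 0.999. Cartpt, a neuropeptide precursor of particular projection neurons, went the other way, at 46.5 and 167 CPM against 8.61, 0 and 8.27 CPM (-3.91 ± 1.10, edgeR adjusted p = 0.999). Rgs4, which damps G-protein signalling, was at 114 and 432 CPM against 94.7, 108 and 53.7 CPM. Sema6a, a guidance molecule, was at 40.6 and 78.0 CPM against 8.61, 24.1 and 12.4 CPM. Without the filter on low counts Ndnf and Cartpt were the 2 genes that passed, each with an edgeR adjusted p of 0.0013. Lmo3, a transcription regulator enriched in BLA projection neurons, was at 203 and 298 CPM in the saline mice and at 267, 0 and 41.3 CPM in the ketamine mice. It is 1 of 6 listed markers of the BLA region, of which 5 were tested. Of these 2 were higher and 3 lower, with a median log2 fold change of -0.06. The summed level of all 6 overlapped, at 561 and 525 CPM against 878, 181 and 492 CPM. This sum was not particular to excitatory neurons. In saline mouse 9901 it was 1013 CPM in astrocytes, 406 CPM in oligodendrocytes, 45.5 CPM in endothelial cells and 0 in inhibitory neurons. With barcodes holding any Slc17a6 removed, 0 of 5936 genes passed, in a comparison that kept only 2 of the ketamine mice.

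**Figure D2:**
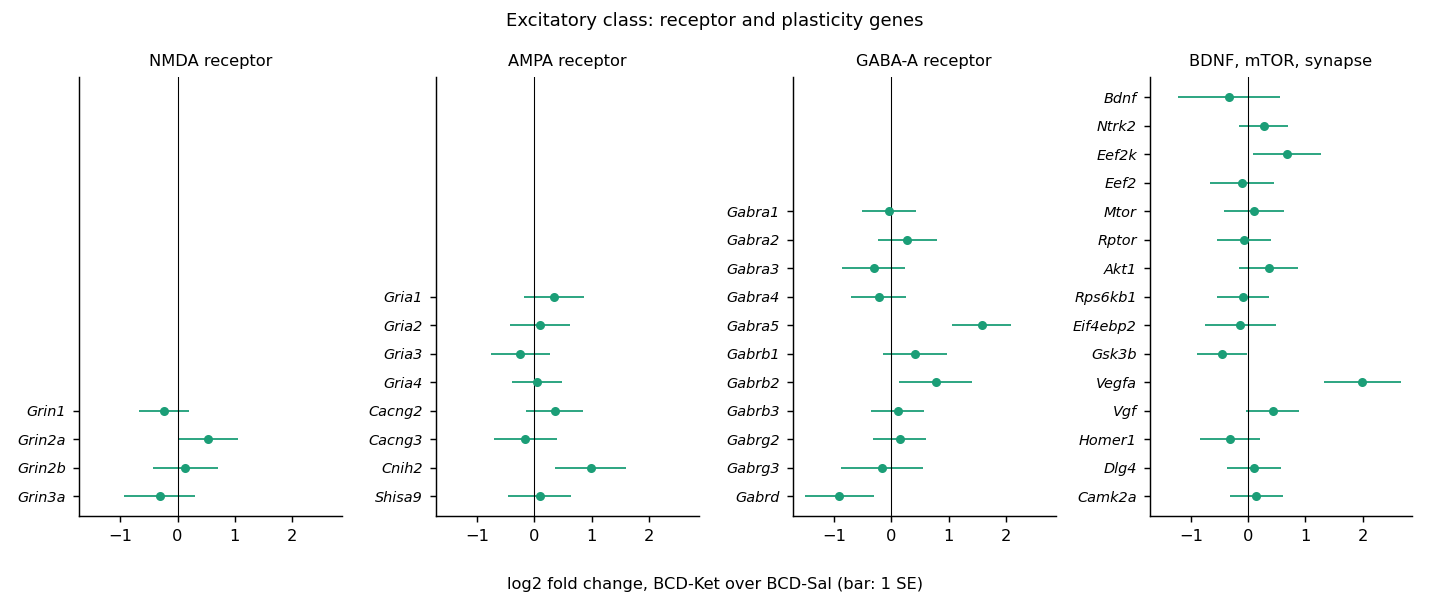
Log2 fold change of BCD-Ket over BCD-Sal in excitatory neurons (x axis), 1 point per tested gene of 4 lists, with bars of 1 SE from the edgeR fit and a line at 0. Grin1 and Gria2 lie beside the line, Gabra5 at 1.58 and Vegfa at 2.00 lie furthest from it, and no gene shown passed the adjusted test.

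Inhibitory neurons were too few to compare in 2 of the ketamine mice, which had 6 and 9 of them, below the minimum of 10. The comparison therefore rested on ketamine mouse 9946 (22 cells) against both saline mice (17 and 67 cells), a use of 1 library in a group that was added after seeing the data. edgeR called 0 of 1986 genes, DESeq2 0, and 12 had an unadjusted p under 0.05. Penk, the enkephalin precursor of striatal and central amygdala neurons, was at 1282 and 2197 CPM in the saline mice and at 252, 90.6 and 473 CPM in the ketamine mice. The 8 striatal markers together gave 1735 and 5026 CPM against 1192, 634 and 1465 CPM, highest in saline mouse 9947, which had 67 of the inhibitory cells. Vip, the peptide of an interneuron class, was at 0 and 29.2 CPM against 655, 10012 and 0 CPM. The value of 10012 CPM came from 221 UMIs in a library with 6 inhibitory cells. With the kind of library as a term (under 10 microglial barcodes or more, added after seeing the data) 8 genes passed, among them Penk (-3.51, edgeR adjusted p = 2.75e-07) and Vip (4.17, edgeR adjusted p = 1.55e-05). Nuclear genes of oxidative phosphorylation were lower for 40 of 43 tested. Their median was -0.93 beside -0.11 over all genes, of which 43.9% were higher. Their summed level was 3470 and 18092 CPM in saline mice 9901 and 9947. It was 8176 CPM in ketamine mouse 9946, the one in the fit, and 8925 and 10494 CPM in 9949 and 9986. Every ketamine mouse thus lay between the saline mice.

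Endothelial cells numbered 134 and 43 in the saline mice and 132, 137 and 139 in the ketamine mice, and no gene passed. Their summed UMIs were uneven, from 31874 in saline mouse 9947 to 525011 in ketamine mouse 9949. edgeR called 0 of 6250 genes, DESeq2 0, and 118 had an unadjusted p under 0.05. Of the blood-brain barrier list, 19 genes were tested, 0 passed, 14 were higher against 55.5% of all genes, and the median of 0.08 equalled that of all genes. Abcb1a, the efflux pump P-glycoprotein, was at 1607 and 1475 CPM against 1640.0, 1329.5 and 1444 CPM. Slco1a4, an organic anion carrier, was at 3017 and 3231 CPM against 4849, 1914 and 2944 CPM. Slc2a1, the glucose transporter of the barrier, was the one list member higher in every ketamine mouse, at 1536 and 1788 CPM against 2673, 2293 and 1860.1 CPM. Its log2 fold change was 0.56 ± 0.61 (edgeR adjusted p = 1), and 10.6% of all genes in the class were higher in every ketamine mouse.

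Interferon-response genes, which antiviral signalling induces, were tested in 19 of 19 cases. Of these 14 were higher, against 55.5% of all genes in the class, 0 passed and the median was 0.49. B2m, the shared light chain of MHC class I, was at 591 and 722 CPM against 1296, 882 and 724 CPM. H2-D1, an MHC class I heavy chain, was at 379 and 596 CPM against 617.5, 714 and 685 CPM. The 13 tested genes of VEGF, Notch and Wnt signalling had a median of -0.01. Of these 4 were higher in every ketamine mouse, as were 10.6% of all genes in the class. Among the 4 were Tek (404 and 408 CPM against 557, 459 and 448 CPM) and Hey1, a Notch target (55.6 and 62.7 CPM against 91.1, 83.8 and 73.4 CPM). Per3, a component of the circadian clock, was lower in every ketamine mouse. It was at 111 and 157 CPM against 60.7, 36.2 and 69.9 CPM, a log2 fold change of -1.12 ± 0.54 (edgeR adjusted p = 1), and 8.54% of all genes in the class were lower in every ketamine mouse. The 11 tested clock genes had a median of -0.25, and 3 were higher.

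Immediate early genes in endothelial cells were high in the libraries with microglia, in both groups. Their summed level was 9824 CPM in saline mouse 9901 and 3075 CPM in saline mouse 9947. It was 3796, 18855 and 8940 CPM in ketamine mice 9946, 9949 and 9986. The library without microglia was the lowest of its group in each case. Fos was at 960.1 and 0 CPM against 0, 1554 and 643 CPM, and Egr1 at 551 and 0 CPM against 0, 649.5 and 325 CPM. In the fit 19 of 21 tested members were higher, against 55.5% of all genes in the class, with a median of 0.61, and 0 passed. Heat shock genes summed to 4614 and 3639 CPM against 4586, 10617 and 4052 CPM, so that ketamine mouse 9949 alone stood apart, as it did in Hspa1a, the inducible chaperone (96.0 and 31.4 CPM against 20.2, 981 and 69.9 CPM).

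Haemoglobin transcripts, which red blood cells carry, also differed by library. The 5 blood genes summed to 2229 and 0 CPM in the saline mice and to 10.1, 5076 and 29565 CPM in the ketamine mice. Of the 10 microglial markers, 3, 0, 1, 6 and 4 were detected in the endothelial sums, at 25.3, 0, 10.1, 83.8 and 45.5 CPM. When no UMI of another gate was allowed, Hba-a2 was called lower with ketamine at -6.08 (edgeR adjusted p = 1.91e-07), opposite to its 3.37 in the full gate, and Gria2, a neuronal gene, lower at -2.26. The part of these transcripts in the other endothelial values was not tested.

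**Figure D3:**
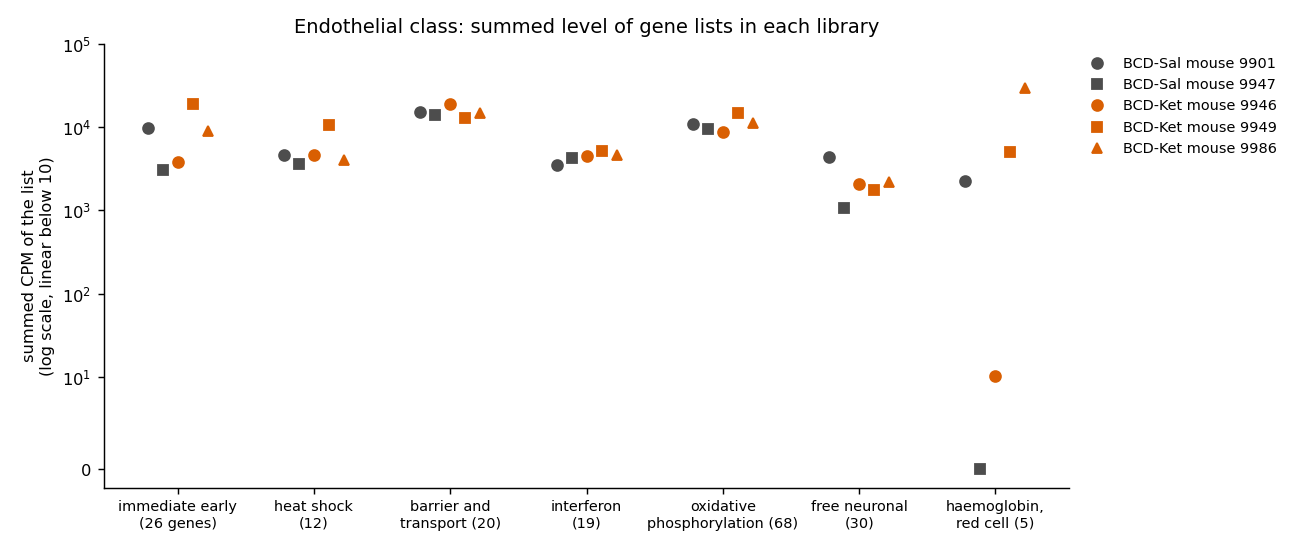
Summed CPM in endothelial cells (y axis, log scale, linear below 10) of 7 gene lists (x axis), 1 symbol per mouse, with BCD-Sal in grey and BCD-Ket in orange. Immediate early sums are 9824, 18855 and 8940 CPM in the 3 libraries with microglia and 3075 and 3796 CPM in those without, and the haemoglobin list runs from 0 to 29565 CPM.

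The endothelial gene with the smallest p was a neuronal one. Scn2a, a sodium channel of neuronal axons, was at 70.7 and 62.7 CPM in the saline mice and at 10.1, 9.52 and 6.99 CPM in the ketamine mice, from 14, 2, 1, 5 and 2 UMIs. Its log2 fold change was -2.80 ± 0.76 with an unadjusted edgeR p of 0.0003 and an adjusted p of 1. In excitatory neurons the same gene was at 894 and 776 CPM against 981, 638 and 918 CPM, without a separation. Next came mt-Atp8, a mitochondrially encoded subunit of ATP synthase, at 601 and 596 CPM against 172, 232 and 133 CPM (-1.61 ± 0.47, edgeR adjusted p = 1). Mrps18a, a mitochondrial ribosome protein, had 0 UMIs in both saline mice and 40.5, 32.4 and 35.0 CPM in the ketamine mice, at least 2.61-fold higher against a floor of 3 UMIs over the saline group. Bcl6b, a repressor enriched in endothelium, was at 10.1 and 0 CPM against 60.7, 85.7 and 31.5 CPM, and Fbf1, a centriole protein, at 45.5 and 31.4 CPM against 10.1, 5.71 and 3.50 CPM.

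Free neuronal RNA, set loose when neurons break, was measured in the non-neuronal classes with a list of 30 neuronal transcripts. It took 0.442% and 0.107% of endothelial UMIs in the saline mice and 0.208%, 0.176% and 0.216% in the ketamine mice. In astrocytes the shares were 0.445% and 0.0988% against 0.222%, 0.144% and 0.220%, and in oligodendrocytes 0.440% and 0.101% against 0.0681%, 0.131% and 0.161%. The astrocyte shares of saline mouse 9947 and ketamine mouse 9946 rest on 3 and 7 UMIs of the list. Both libraries were below the minimum of 10 astrocytes. Saline mouse 9901 was thus the highest library in all 3 classes, at about the same share in each, whereas saline mouse 9947 was the lowest in endothelial cells and astrocytes. The exact permutation p was 0.7, 0.7 and 0.4, with 0.7 for each after adjustment over the 3 classes. Meg3, an abundant neuronal noncoding RNA, showed the pattern in endothelial cells, at 1809 and 282 CPM against 526, 613 and 836 CPM.

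Genes were then split by where their RNA was most abundant: neuronal where the mean of the neuronal classes was at least 4 times that of the class, class genes where the class was at least 2 times the neuronal mean, and shared otherwise. In endothelial cells the median log2 fold change was 0.14 over 2050 class genes, 0.04 over 3862 shared genes and -0.27 over 338 neuronal genes. In oligodendrocytes it was 0.08, 0.08 and -0.42 over 1175, 2070 and 92 genes. The free neuronal list itself was lower for 21 of 22 tested genes in endothelial cells (median -0.73) and for 11 of 13 in oligodendrocytes (median -1.36), and 0 members passed in either. Free RNA was estimated by scaling the nuclear profile of each library's barcodes above the mitochondrial limit to this list. The estimate takes every list UMI and the whole profile as free RNA, although those barcodes also hold broken cells. It came to 9.46% of endothelial UMIs in saline mouse 9901 and 1.80% in saline mouse 9947. In the ketamine mice it was 3.79%, 5.99% and 5.48%.

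Oligodendrocytes numbered 41 and 21 in the saline mice and 69, 45 and 64 in the ketamine mice. edgeR called 0 of 3337 genes, DESeq2 0, and 127 had an unadjusted p under 0.05. Of the myelin list all 18 genes were tested, 12 were higher against 54.6% of all genes, 0 passed and the median was 0.21, beside 0.07 over all genes. Mbp, the basic protein that compacts myelin, was slightly higher in every ketamine mouse, at 4088 and 4919 CPM against 5366, 6025 and 4937 CPM. Opalin, a marker of mature oligodendrocytes, had the same order at 658 and 735.5 CPM against 937, 952 and 1112 CPM, and 12% of all genes in the class were higher in every ketamine mouse. Apod, a lipid carrier, was lower in each, at 4004 and 4045 CPM against 2981, 3474 and 2853 CPM, as were 9.11% of all genes.

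Nuclear genes of oxidative phosphorylation were higher for 59 of 66 tested, against 54.6% of all genes in the class, with a median of 0.41 and 0 passing. Their summed level was 11747 and 9515.5 CPM in the saline mice and 10659, 18149 and 12867 CPM in the ketamine mice, so ketamine mouse 9949 stood apart and ketamine mouse 9946 lay below saline mouse 9901. Cox5a, a subunit of cytochrome c oxidase, was at 28.0 and 0 CPM against 109.5, 183 and 146 CPM (2.84 ± 0.84, edgeR adjusted p = 0.982). Ndufab1, the acyl carrier of complex I, was at 28.0 and 0 CPM against 85.2, 168 and 166 CPM. Each rested on 2 UMIs in saline mouse 9901 and 0 in saline mouse 9947, whose oligodendrocytes gave 71420 and 21754 UMIs in all. Psmd14, a proteasome subunit, had 0 UMIs in both saline mice and 97.3, 74.7 and 72.8 CPM in the ketamine mice, at least 2.41-fold higher against the floor of 3 UMIs. Bcas1, which marks newly myelinating cells, was at 154 and 0 CPM against 231, 396 and 364 CPM. Sirt2, a deacetylase of myelin, was at 602 and 229.8 CPM against 475, 1457 and 909 CPM.

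The smallest adjusted p in oligodendrocytes belonged to Snhg11, a noncoding RNA host gene that neurons express. It was at 546 and 0 CPM in the saline mice and at 60.8, 41.1 and 135 CPM in the ketamine mice, a log2 fold change of -2.11 ± 0.51 (edgeR adjusted p = 0.212). The saline values lay on both sides of all the ketamine values. Without saline mouse 9947 it passed at -2.76 (edgeR adjusted p = 9.89e-05), and without saline mouse 9901 its sign turned. With the kind of library as a term Snhg11 passed at -2.21 (edgeR adjusted p = 0.0063), also within the 5 BCD libraries alone (edgeR adjusted p = 0.0033). Meg3 in the same cells was at 1624 and 46.0 CPM against 0, 112 and 348 CPM, again highest in saline mouse 9901. With the term for the kind of library Meg3 and Lars2 passed too, both lower (edgeR adjusted p = 2.10e-08 and 0.012).

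Astrocytes gave the only calls, and they rested on 1 saline library. Saline mouse 9901 had 201 astrocytes, ketamine mice 9949 and 9986 had 163 and 186, and the remaining libraries had too few. The use of a lone library, assumed to vary like those of the other groups, was added after seeing the data. edgeR called 14 of 8566 genes higher (0.163%) and 84 lower (0.981%) with ketamine, DESeq2 called 0, and 819 had an unadjusted edgeR p under 0.05. Without ketamine mouse 9949 edgeR called 3 genes, and without ketamine mouse 9986 it called 113. Among the 84 lower genes 55 were class genes, 17 shared and 12 neuronal, and among the 14 higher genes 8, 6 and 0. Of all 8566 genes tested, 25.9% were class genes, 68.7% shared and 5.39% neuronal.

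Among the lower class genes were Foxj1, Ccdc153, Hydin, Dnah6 and Enkur, known from motile cilia, the beating hairs of the ependymal cells that line the ventricles. Of the 6 choroid and ependymal markers fixed as a list, only Foxj1 and Ccdc153 were called. Foxj1, the master regulator of motile cilia, was at 119 CPM in the saline mouse and at 14.8 and 29.2 CPM in the ketamine mice, a log2 fold change of -2.44 ± 0.49 (edgeR adjusted p = 0.00020). Ccdc153, an ependymal marker, was at 235 CPM against 46.3 and 73.1 CPM (-1.95 ± 0.37). Hydin, a protein of the ciliary central pair, was at 94.6 CPM against 1.85 and 20.5 CPM (-3.24 ± 0.58). Dnah6, a dynein arm heavy chain, and Enkur, a sperm and cilia adaptor, fell by 3.47 and 2.76 on the log2 scale. With the free RNA share as a covariate none of these 5 passed and Enkur turned to 0.41, and without ketamine mouse 9949 Foxj1 was not called (edgeR adjusted p = 0.218). The lone saline library also had the highest free RNA share, 0.445% against 0.144% and 0.220% in the ketamine mice. In astrocytes the free RNA covariate therefore cannot separate free RNA from treatment, for these genes and those below. Barcodes with a UMI of Foxj1, Ccdc153 or Tmem212 passed the astrocyte gate in 9 of 201 cases in the saline mouse and in 1 of 163 and 4 of 186 in the ketamine mice.

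Ccdc153, Enkur and Hydin are shown with their promoters because they fell together and each holds the core letters of the X-box, the element bound by RFX factors of ciliated cells. The letters searched were GTTGCC on both strands, from 250 bases before to 50 bases after the start in RefSeq (GRCm38.p6), and capitals mark them or their reverse complement.
Ccdc153, chr9:44240427-44240726, plus strand: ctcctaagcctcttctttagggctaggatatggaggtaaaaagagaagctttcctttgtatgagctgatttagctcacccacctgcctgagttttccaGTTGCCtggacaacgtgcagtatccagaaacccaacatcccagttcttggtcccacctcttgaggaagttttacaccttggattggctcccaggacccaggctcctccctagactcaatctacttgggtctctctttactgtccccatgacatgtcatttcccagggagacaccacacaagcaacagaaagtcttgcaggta
Enkur, chr2:21205316-21205615, minus strand: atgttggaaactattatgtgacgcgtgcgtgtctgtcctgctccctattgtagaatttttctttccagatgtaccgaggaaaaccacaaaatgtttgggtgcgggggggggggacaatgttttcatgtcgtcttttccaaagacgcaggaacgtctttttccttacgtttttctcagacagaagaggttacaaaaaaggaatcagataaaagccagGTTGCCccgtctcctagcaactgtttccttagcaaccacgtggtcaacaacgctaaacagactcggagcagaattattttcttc
Hydin, chr8:110266727-110267026, plus strand: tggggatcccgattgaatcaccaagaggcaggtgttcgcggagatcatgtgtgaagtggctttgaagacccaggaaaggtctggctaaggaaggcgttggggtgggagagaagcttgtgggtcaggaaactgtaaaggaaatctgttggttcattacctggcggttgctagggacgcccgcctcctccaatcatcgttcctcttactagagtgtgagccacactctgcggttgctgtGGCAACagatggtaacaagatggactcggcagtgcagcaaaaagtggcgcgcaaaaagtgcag
The letters stood in 35% of the promoters of the lower astrocyte genes (21 of the 60 with an entry), in 15.6% of those of all astrocyte genes tested (1058 of 6794) and in 14.1% of 27025 promoters. Some lower genes were no longer called once the barcodes with a UMI of Foxj1, Ccdc153 or Tmem212 were left out. Among those, the letters stood in 32.7% of the promoters (18 of the 55 with an entry). The lower genes were picked from these same data and include the cilia genes, so these shares do not test a response to ketamine. A match describes the sequence and does not locate a bound site. In the files' own build (mm9), Foxj1 lies on chr11:116192018-116196713, Ccdc153 on chr9:44048760-44055389, Hydin on chr8:112790877-113134153 and Enkur on chr2:21102358-21126992.

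Without the barcodes that held an ependymal gene, most astrocyte calls were lost. Their removal was added after seeing the data. It takes out every UMI of Foxj1, Ccdc153 and Tmem212, so the loss of the Foxj1 and Ccdc153 calls was fixed in advance. edgeR then called 2 of 7928 genes higher (0.0252%) and 10 lower (0.126%), and DESeq2 called 2 in all. Of these 12 calls 11 were among the earlier 98, and 53 of the 98 no longer passed the filter on low counts. Of the 10 lower genes 6 were of neuronal origin: Map1b, Celf4, Celf5, Olfm1, Arpp21 and Camk2a. Among all 7928 genes tested, 419 (5.29%) were of neuronal origin, with a median log2 fold change of -0.45. With free RNA also subtracted the balance turned, with 12 genes called higher and 6 lower. The calls after subtraction included the neuronal RNAs Meg3 (log2 fold change -5.72) and Snhg11 (-4.57). Selenow (8.83), Camk2n1 (8.73), Calm2 (8.14) and Tmsb4x (8.01) were among the higher ones. Subtraction could remove all UMIs of a gene in a library, and its part in these values was not tested. Map1b, a microtubule protein of axons, was at 154 CPM against 25.9 and 29.2 CPM in the full gate (-2.42 ± 0.45, edgeR adjusted p = 6.77e-05). Vim, the intermediate filament of reactive astrocytes and of ependyma, fell in the full gate (238 CPM against 50 and 137 CPM, edgeR adjusted p = 0.017) but not without the ependymal-gene barcodes, where it was at 53.4 CPM against 28.1 and 52.4 CPM. With the free RNA covariate it turned to 0.59.

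The other lower calls were few: Mgp was a class gene, and Slc38a2, mt-Atp8 and AC149090.1 were shared. A shared gene may still be more abundant in neurons, by under 4 times, and the part of free RNA in it was not tested. Slc38a2, the SNAT2 transporter of neutral amino acids, was at 294 CPM in the saline mouse and at 24.1 and 38.0 CPM in the ketamine mice, a fall by 3.22 ± 0.40 on the log2 scale (edgeR adjusted p = 8.95e-12). Without the ependymal-gene barcodes it was at 263 CPM against 20.6 and 15.4 CPM. Its call was lost with DESeq2 (adjusted p = 0.093), with no UMI of another gate allowed (edgeR adjusted p = 0.074) and with the free RNA covariate (edgeR adjusted p = 0.897). Mgp, a calcification inhibitor of vascular and meningeal cells, was at 119 CPM with 34 UMIs in the saline mouse and at 0 in both ketamine mice, at least 35.0-fold lower against the floor of 3 UMIs. The rest were mt-Atp8 (575 CPM against 217 and 175 CPM) and AC149090.1, a transcript without a described function (1584 CPM against 797 and 439 CPM). Both varied between libraries in other classes too: mt-Atp8 was lower in ketamine mice 9949 and 9986 than in both saline mice in each of the other 4 classes, and in inhibitory neurons AC149090.1 ran from 151 to 5846 CPM.

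Higher under both gates were Ndufa8 and Ppp1r35. Ndufa8, an accessory subunit of complex I, was at 45.6 CPM against 202 and 213 CPM (2.25 ± 0.44, edgeR adjusted p = 0.00016), and was not called without ketamine mouse 9949 (edgeR adjusted p = 0.135). Ppp1r35, a centriole protein, had 0 UMIs in the saline mouse and 50 and 40.9 CPM in the ketamine mice, at least 4.42-fold higher. With free RNA also subtracted, the log2 fold change was 2.46 for Ndufa8, -4.60 for Slc38a2 and -1.43 for AC149090.1. The subtracted profile held nuclear genes only, so mt-Atp8 could not lose UMIs by it. Nor could it change a group at 0 UMIs, as for Ppp1r35 and Mgp. That these 3 genes stayed as they were is therefore no support for them. Genes of oxidative phosphorylation were higher for 66 of 68 tested in the full gate, where 52.3% of all genes were higher, with a median of 0.57 and 1 call, Ndufa8.

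Genes of core astrocyte functions gave no call. The homeostasis list, which covers glutamate and potassium uptake and water balance, had 16 genes tested, 0 called and a median of 0.39. Slc1a3, the glutamate transporter GLAST, was at 4094 CPM against 4149 and 4211 CPM, and Slc1a2, the transporter GLT-1, at 9625 CPM against 7870.4 and 10749.7 CPM. Glul, which turns glutamate into glutamine, was at 1854 CPM against 2694 and 2316 CPM (edgeR adjusted p = 0.536). Called higher in the full gate but not without the ependymal-gene barcodes were Cst3, a secreted protease inhibitor (8241 CPM against 14019 and 14706 CPM), Cldn10 (522 CPM against 1069 and 965 CPM), Fdps, an enzyme of sterol synthesis (21.0 CPM against 98.2 and 90.7 CPM), and Tsc22d3, a glucocorticoid-induced gene (73.6 CPM against 243 and 143 CPM, edgeR adjusted p = 0.031). There their log2 fold changes were 0.63, 0.79, 2.24 and 1.33, beside 0.87, 1.03, 2.23 and 1.49 in the full gate. Their edgeR adjusted p was 0.496, 0.496, 0.088 and 0.245, and with the free RNA covariate Tsc22d3 turned to -0.36.

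**Figure D4:**
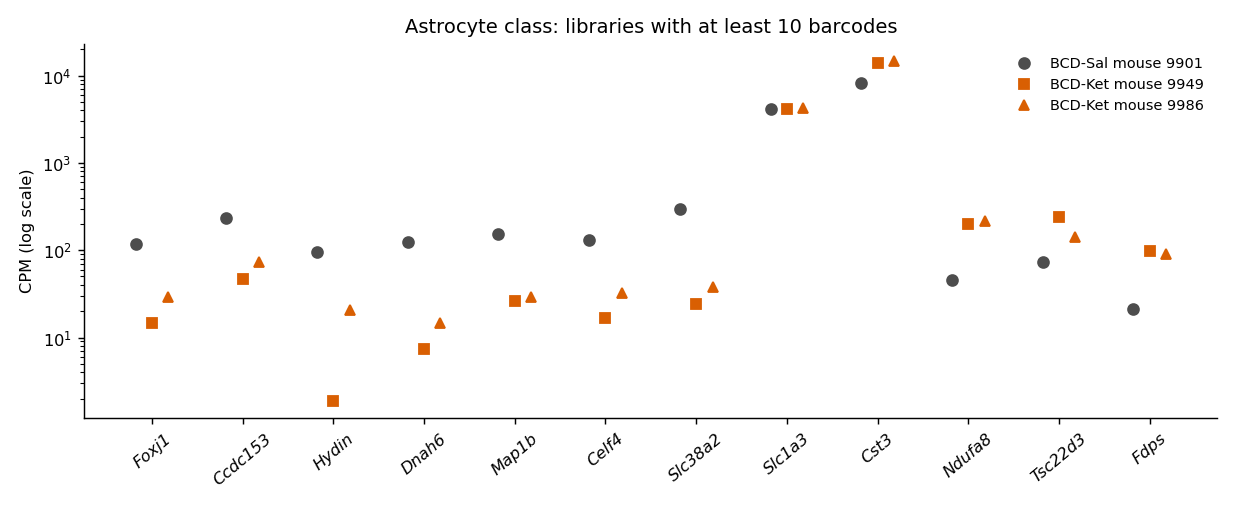
CPM in gated astrocytes (y axis, log scale) of 12 genes (x axis) in saline mouse 9901 (grey) and ketamine mice 9949 and 9986 (orange). The cilia genes, Map1b, Celf4 and Slc38a2 lie lower in both ketamine mice, Ndufa8 and Fdps higher, and Slc1a3 stands at 4094, 4149 and 4211 CPM.

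Barcodes above the mitochondrial limit, which hold broken cells, neuropil and free RNA, served as a reference for what moved outside the classes. In their nuclear genes edgeR called 0 of 12573, DESeq2 0, and 68 had an unadjusted p under 0.05. Ttr, the thyroid hormone carrier secreted by the choroid plexus, separated furthest, at 843 and 6348 CPM in the saline mice and at 3.99, 26.3 and 18.8 CPM in the ketamine mice. Its log2 fold change was -7.59 ± 2.22 with an unadjusted edgeR p of 0.0039 and an adjusted p of 1. All 6 choroid and ependymal markers were lower, with a median of -1.11, beside 0.02 over all genes, of which 52.8% were higher. In these barcodes 1 barcode held 669 of the 1537 Ttr UMIs of saline mouse 9901, and 1 held 799 of the 4147 of saline mouse 9947. Without the filter on low counts 10 genes passed, among them Ttr, Kl, Folr1, Sostdc1, Kcne2 and Cldn2, all known from choroid plexus and all lower with ketamine, and S100a8 and S100a9 of neutrophils, both higher. Whether the dissected tissue held choroid plexus in the saline mice was not tested.

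**Figure D5:**
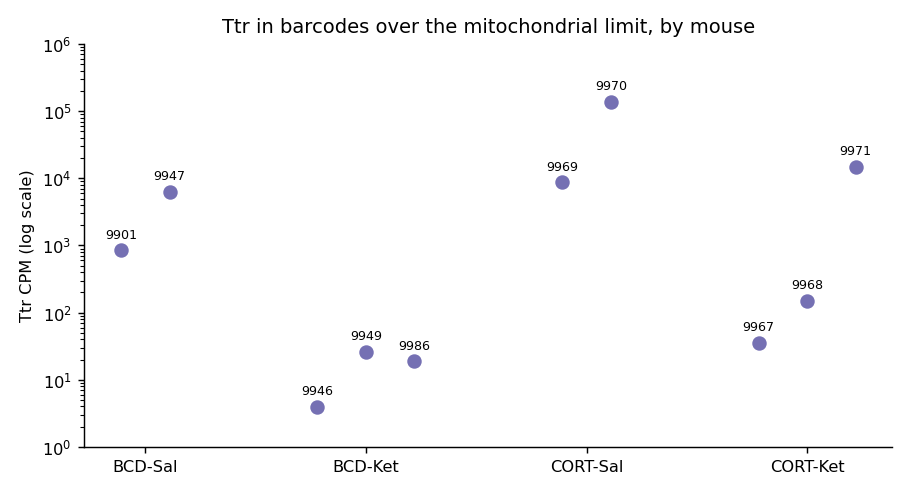
Ttr CPM in barcodes above the mitochondrial limit (y axis, log scale) in the 10 BLA libraries by group (x axis), 1 point per mouse with its number. The ketamine mice without corticosterone lie at 3.99 to 26.3 CPM, the saline mice at 843 and 6348 CPM, and the corticosterone libraries spread from 35.4 to 135413 CPM.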

How the data were processed

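The authors dissociated the tissue, captured cells on the 10x Chromium platform and ran Cell Ranger (3.0.2 in the matrix header) on mm9, with Seurat 3.1.1 named in the submitters' processing notes. The authors deposited 1 matrix per mouse of whole UMI counts, not normalized, with genes as lines and barcodes as columns. Here barcodes were filtered and gated as described, no doublet caller was run (a class needed at least 3 times the UMIs of any other gate), and counts were summed per mouse and class. Classes were tested in 1 fit of the 10 BLA libraries with at least 10 cells, using edgeR 4.0.16 (TMM, filterByExpr, robust quasi-likelihood F test, Benjamini-Hochberg over all genes tested, threshold 0.05), in R 4.3.3 and Python 3.11.15. DESeq2 1.42.0 was an alternative. A class was to need 2 libraries a group; astrocytes and inhibitory neurons were tested with 1 as an addition. P-values measure the spread between mice of the same group, pooled over the groups in the fit. For astrocytes they hold no spread between the BCD-Sal mice, which gave 1 library. For inhibitory neurons they hold none between the BCD-Ket mice, which also gave 1. Shares were compared by exact two-sided permutation over mice.

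The members and gene lists were chosen with earlier results of these data known. Genes named by rule were list members and the 10 largest calls per direction and origin with groups that did not overlap. In classes with under 5 calls the 5 smallest p were added. Others were named after their values were seen, among them Hydin, Enkur, S100a8 and S100a9. So were genes called only in an alternative, such as Lars2, Kl and Sostdc1. Lmo3, a list member, was also picked after its values were seen. Fold changes against a group at 0 use a floor of 3 UMIs over the group, which covers counting error only. The test was checked on simulated counts. Of 200 genes changed 2-fold it recovered 1 in excitatory neurons, 4 in endothelial cells and 1 in oligodendrocytes. Of 200 changed 4-fold it recovered 77, 65 and 99 in the same order. In inhibitory neurons it recovered 0 of 200 at either fold, and in astrocytes 1 at 2-fold and 111 at 4-fold. A missing call therefore does not show that a gene was unchanged. The test also called unchanged genes. In excitatory neurons, endothelial cells and oligodendrocytes these numbered 1, 4 and 0 at 2-fold and 11, 5 and 4 at 4-fold. Alternatives were other gates, limits, filters, size factors, libraries, a term for the kind of library and subtraction or a covariate for free RNA. Some results of the gene lists are not reported here.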

Additional observations from a re-analysis of the deposited data

Results flagged for a closer look

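In libraries outside the comparison, Ttr was also high in barcodes above the mitochondrial limit. It was at 8694.15 CPM in CORT-Sal mouse 9969, at 135413 CPM in CORT-Sal mouse 9970 and at 14749 CPM in CORT-Ket mouse 9971, each above the 2 saline libraries without corticosterone (843 and 6348 CPM). The value of mouse 9970 rests on 71 barcodes with 20995 nuclear UMIs. CORT-Ket mice 9967 and 9968 were at 35.4 and 149 CPM, so the corticosterone groups were not uniform, and the difference between them was not tested.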

How the results depend on the processing

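No paired analysis was possible because the labels give each mouse a number of its own and no replicate number, so that nothing ties a ketamine mouse to a saline mouse. Of the alternative values, 155 kept their result (a share its direction and side of the threshold, a count within 1.5 times), 23 counts moved further and 7 shares turned. The astrocyte share turned to -1.44 percentage points at a limit of 5% mitochondrial UMIs, and the oligodendrocyte free RNA share to 0.0069. Without single libraries the difference in share ran from 4.11 to 14.8 percentage points for endothelial cells, -0.31 to 14.3 for astrocytes, 1.10 to 7.76 for oligodendrocytes, -19.4 to -7.15 for excitatory and -24.1 to 1.33 for inhibitory neurons (the last turned without saline mouse 9947), and that in free RNA from -0.24 to 0.093 in endothelial cells, -0.25 to 0.097 in astrocytes and -0.32 to 0.019 in oligodendrocytes, above 0 each time without saline mouse 9901. Astrocyte calls numbered 3 at the 5% limit, 0 by DESeq2, 5 with the free RNA share as a covariate, 4 with a gate of 1 UMI and 3 to 113 without single libraries. Without ependymal-gene barcodes they numbered 12 (12 with RLE size factors, 2 by DESeq2, 18 with free RNA subtracted, of which 12 higher and 6 lower, 6 without ketamine mouse 9949 and 18 without 9986). Endothelial calls rose to 2 when no UMI of another gate was allowed (Gria2 at -2.26 and Hba-a2 at -6.08, the latter opposite to its 3.37 in the full gate), excitatory calls to 2 and those above the limit to 10 without the filter on low counts. Inhibitory calls numbered 8 with the kind of library as a term and 0 to 2 without single libraries (2 without saline mouse 9947). Oligodendrocyte calls numbered 3 with that term (also in the 5 BCD libraries alone), 1 with at least 30 cells, 5 with the free RNA covariate and 0 to 1 without single libraries (1 without saline 9901, saline 9947 or ketamine 9986). With the free RNA covariate Snhg11 turned to 0.30, Enkur to 0.41, Tsc22d3 to -0.36 and Vim to 0.59, and without single libraries Snhg11 ran from -2.80 to 6.42, the latter without saline mouse 9901. In astrocytes the lone saline library had the highest free RNA share of the libraries compared, so there the covariate cannot separate free RNA from treatment. The causes were not tested.

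Among single genes, 587 alternative values kept their sign and their side of the threshold, 122 lost a call, 13 gained one and 5 turned. The 587 include genes of classes without any call, which stayed uncalled. The 122 losses were all of genes called in astrocytes, the only class with calls. The thinnest sums tested held 21754 UMIs (oligodendrocytes, saline mouse 9947), 26514 (inhibitory neurons, saline mouse 9901) and 31874 (endothelial cells, saline mouse 9947).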
